A study of Mus musculus with 2 samples.

Results

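Heat shock chaperones were described through 10 genes of the 31053 gene symbols counted in each library: Hspa1a, Hspa1b, Dnajb1, Hsph1, Hsp90aa1, Hsp90ab1, Hspb1, Hspa8, Hspd1 and Hspe1. The list was drawn up because Hspa1a and Hspa1b had lower values in the FMTg library in several cell classes. Every difference between the libraries given below therefore belongs to the contrast that led to the choice and is a description. All 10 symbols were found in both libraries.

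Fresh small intestine came from 2 C57BL/6j mice, both 60 days old: 1 called Tg, with the genotype Mdm2+/- Cag-CreERTg, and 1 called FMTg, with Mdm2FM/- Cag-CreERTg. Tissue was taken 24 hours after a single dose of tamoxifen (6 mg for each 40 g that the mouse weighed). Both mice thus carried 1 Mdm2 null allele and the CreER transgene, a tamoxifen-activated recombinase driven by the broadly active Cag promoter, and both were given tamoxifen. By the title of the series, Tg retains Mdm2 and FMTg loses it, which activates p53 acutely; Mdm2 encodes the ubiquitin ligase that keeps p53 low. With 1 library per group there is no replicate check, and no test was made. Intervals are at 95% and hold counting error alone, and genotype, mouse, cell preparation and library cannot be told apart.

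Heat shock chaperones bind unfolded or partly folded proteins and help them to refold or to be degraded. When unfolded protein accumulates, as under heat or oxidative stress, the transcription factor Hsf1 binds inverted GAA units in front of their genes and raises transcription quickly, most of all of Hspa1a and Hspa1b, the stress-inducible Hsp70 genes. Hspa8, Hsp90ab1, Hspd1 and Hspe1 are also transcribed in unstressed cells, and in gut tissue the handling needed to free single cells is itself known to induce several of these genes.

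Hspa1a and Hspa1b are adjacent copies, and the bases in front of them are shown because the 2 genes can hardly be told apart there. In mm10, Hspa1a lies on the minus strand of chromosome 17 from 34969190 to 34972156 (ENSMUSG00000091971.3) and Hspa1b from 34956436 to 34959238 (ENSMUSG00000090877.3), with 9951 bases between them. Their coding sequences were 99.6% identical over aligned bases and their 3' untranslated regions 78.4%. The other genes lie apart from the pair: Dnajb1 at chr8:83608193-83612653 (plus strand), Hsph1 at chr5:149614287-149636376 (minus), Hsp90aa1 at chr12:110690605-110702728 (minus), Hsp90ab1 at chr17:45567775-45573271 (minus), Hspb1 at chr5:135887919-135889563 (plus) and Hspa8 at chr9:40800984-40810087 (plus). Hspd1 at chr1:55077835-55088243 (minus) and Hspe1 at chr1:55088132-55091307 (plus) are neighbours that meet head to head. RefSeq promoters of GRCm38.p6 covered 7 of the 10 genes. The first 2 sequences, chr17:34972157-34972406 and chr17:34959239-34959488 on the minus strand, are the 250 bases before each start and were the same at 247 positions (98.8%). Hspe1, on the plus strand at chr1:55087898-55088147, is shown for contrast, because it holds a run of touching units. Capitals mark inverted units, GAANNTTC or TTCNNGAA, which read the same on both strands as motifs and may overlap.
Hspa1a: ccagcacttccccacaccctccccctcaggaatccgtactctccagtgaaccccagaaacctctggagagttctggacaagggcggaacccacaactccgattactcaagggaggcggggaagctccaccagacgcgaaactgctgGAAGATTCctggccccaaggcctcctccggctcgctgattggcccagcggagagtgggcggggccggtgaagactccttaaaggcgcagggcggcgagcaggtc
Hspa1b: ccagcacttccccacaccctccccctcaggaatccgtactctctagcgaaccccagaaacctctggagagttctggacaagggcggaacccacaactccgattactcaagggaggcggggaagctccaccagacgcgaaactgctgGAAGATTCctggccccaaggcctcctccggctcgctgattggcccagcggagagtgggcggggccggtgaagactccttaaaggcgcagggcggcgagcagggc
Hspe1: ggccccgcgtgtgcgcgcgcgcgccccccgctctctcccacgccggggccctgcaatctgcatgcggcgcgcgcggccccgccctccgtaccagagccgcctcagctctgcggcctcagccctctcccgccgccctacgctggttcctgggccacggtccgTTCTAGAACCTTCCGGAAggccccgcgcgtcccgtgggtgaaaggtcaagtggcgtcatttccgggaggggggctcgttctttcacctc

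The Hspa1a and Hspa1b windows each held 1 such 2-unit motif, beginning 104 bases before the start. Hspe1 held 3 overlapping ones, at -89, -84 and -79, which also make up runs of 3 units (GAANNTTCNNGAA or TTCNNGAANNTTC). Of 32851 RefSeq promoters of 300 bases, which run 50 bases past the start, 15.1% held a 2-unit motif and 0.603% a 3-unit run. Hspb1 held 2 such motifs, Hsph1 3 with 1 run of 3 units, and the Dnajb1 windows none. Hspd1 shares its promoter region with Hspe1 on the opposite strand, and its window closer to Hspe1 held the same 3 motifs. These matches describe letters and not bound sites.

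The Tg library summed to 54013005 UMIs (unique molecular identifiers, each standing for 1 captured RNA molecule) over 6270 barcodes and the FMTg library to 49805718 over 6382. After filtering, 3067 Tg and 2819 FMTg cells remained, at median depths of 4992 and 4760. Median mitochondrial shares in these cells were 11.7% and 14.8%, and 14 barcodes occurred in both libraries. A limit of 25% on mitochondrial UMIs took out 47.0% and 52.5% of the barcodes. Cells were placed in 9 classes by marker genes. The enterocyte-like class (absorptive villus cells) had 482 Tg and 449 FMTg cells, with medians of 198 and 279 UMIs of 20 enterocyte markers per 10000 non-mitochondrial UMIs. The T-like or NK-like class (T cells and natural killer cells) had 1343 and 1366 cells with medians of 726 and 525 for its own markers, and the B-like class 540 and 602 cells with 116 and 111. Classes of fewer cells were cycling-epithelium-like (10 and 35), goblet-like (97 and 28), tuft-like (36 and 39), enteroendocrine-like (12 and 11), myeloid-like (159 and 40) and neutrophil-like (49 and 5). In enterocyte-like cells Mdm2 stood at 104 CPM in Tg and 200.4 CPM in FMTg (UMIs scaled to a total of 1000000 in each class and library). The deleted exons are not known from the labels, so this 3' count does not check the genotype. Cdkn1a, the p21 gene and a p53 target, stood at 534 and 927 CPM there.

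Hspa1a and Hspa1b, whose reads may be split between near-identical copies, were summed. Over all kept cells the summed level was 159.7 CPM in Tg (5024 UMIs) and 23.5 CPM in FMTg (617 UMIs), 6.79-fold lower in FMTg (6.24 to 7.39). The FMTg level was at least 2-fold lower in each of the 7 classes with 20 or more UMIs of the pair, and no interval of these 7 ratios reached 0 on the log2 scale. Hspa1a made up 38.5% of the pair's UMIs in Tg and 29.7% in FMTg, and each copy was at least 2-fold lower in the same 7 classes.

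The pair stood at 122 CPM in Tg T-like or NK-like cells (exact Poisson interval 114 to 130.3; 831 UMIs) and at 2.44 CPM in those of FMTg (1.40 to 3.96; 16 UMIs). This was the widest gap, 49.9-fold (30.5 to 87.6), and rested on cell numbers that were close in the 2 libraries. In enterocyte-like cells the levels were 149 CPM (143 to 156; 1967 UMIs) and 13.4 CPM (11.2 to 15.9; 133 UMIs), 11.1-fold lower (9.32 to 13.4). In B-like cells they were 49.2 CPM (40.5 to 59.2; 112 UMIs) and 3.70 CPM (1.77 to 6.80; 10 UMIs), 13.3-fold lower (6.98 to 28.5). Among all genes with at least 100 UMIs, Hspa1a and Hspa1b ranked 2 and 3 from the lowest log2 CPM ratio of 8359 in T-like or NK-like cells, and 6 and 10 of 7823 in enterocyte-like cells.

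The gap was narrower in the classes where FMTg kept most of these transcripts. Myeloid-like cells, with the most in both libraries, had 435 CPM in Tg (770 UMIs) and 169 CPM in FMTg (56 UMIs), 2.58-fold lower (1.96 to 3.45). Tuft-like cells, chemosensory cells of the epithelium, had 279 CPM (192 UMIs) and 87.4 CPM (64 UMIs), 3.19-fold lower (2.39 to 4.31). Cycling-epithelium-like cells, defined by cell cycle and epithelial markers, had 189.9 CPM (77 UMIs) and 84.4 CPM (137 UMIs), 2.25-fold lower (1.68 to 2.99), from 10 Tg cells only. In that class 1 of the 35 FMTg cells held 34 of the 137 UMIs. Goblet-like cells, which make mucus, had 74.0 CPM (121 UMIs) and 16.1 CPM (7 UMIs), 4.59-fold lower (2.16 to 11.6). Enteroendocrine-like cells had 14 UMIs in Tg and 0 in FMTg, where 3 UMIs would have been 24.8 CPM, and neutrophil-like cells 5 and 0.

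**Figure D1:**
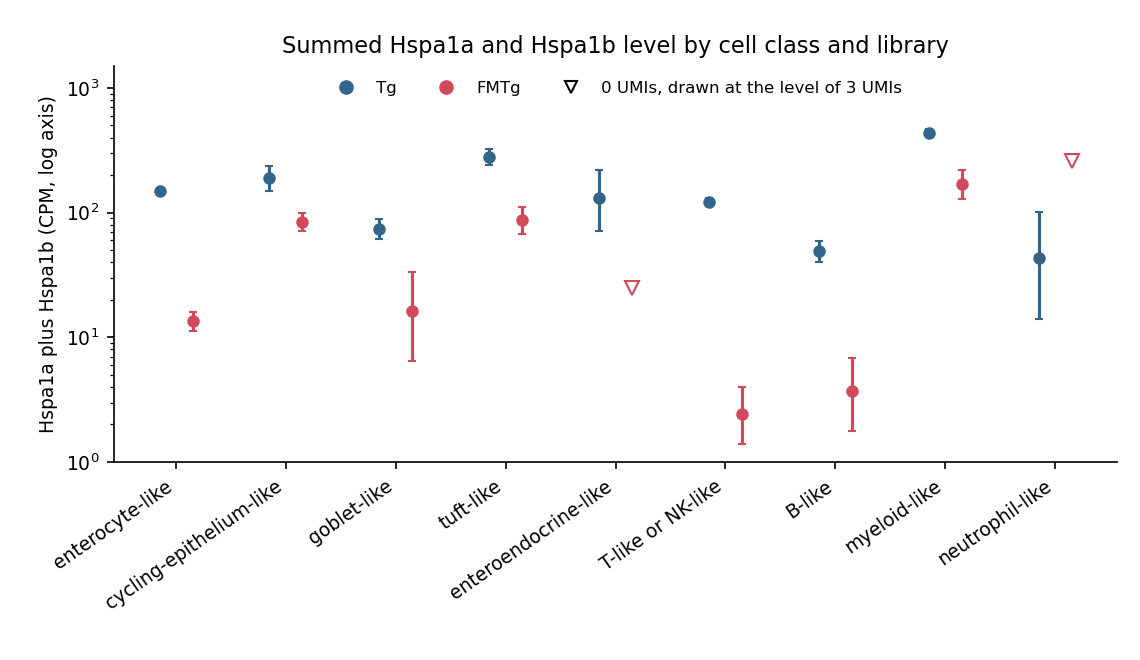
Summed level of Hspa1a and Hspa1b (CPM, log axis) in each cell class, Tg in blue and FMTg in red; bars are exact Poisson intervals at 95%, and open triangles mark 0 UMIs drawn at the level of 3 UMIs. FMTg points lie below Tg points in the 7 classes with a ratio, from 435 against 169 CPM in myeloid-like cells to 122 against 2.44 CPM in T-like or NK-like cells.

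The plot of the pair by class also gives its order within each library. In Tg the level was highest in myeloid-like cells, then tuft-like, cycling-epithelium-like, enterocyte-like, enteroendocrine-like, T-like or NK-like, goblet-like, B-like and neutrophil-like cells. The intervals of neighbours overlapped from cycling-epithelium-like to T-like or NK-like cells and between B-like and neutrophil-like cells, and not elsewhere in that order. In FMTg the first 3 places were the same, and the lowest level above 0 was that of T-like or NK-like cells. Tuft-like and cycling-epithelium-like cells overlapped there, as did goblet-like and enterocyte-like cells, and B-like and T-like or NK-like cells. Cells left out of the classes also had lower FMTg levels, with a log2 CPM ratio of -2.62 (-3.10 to -2.16) for unassigned cells and -1.83 (-2.10 to -1.57) for cells with markers of more than 1 class.

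Over all kept cells 4 of the 10 genes were at least 2-fold lower in FMTg (Hspa1a, Hspa1b, Hsph1 and Hspb1) and 0 were 2-fold higher, where 3.88% and 2.72% of the 11700 genes that had at least 100 UMIs lay past those folds. Within classes, 0 members with 100 UMIs were 2-fold higher. In enterocyte-like cells 3 of 9 members with enough UMIs were 2-fold lower, where 2.59% of 7823 genes were lower and 4.72% higher. The count was 4 of 9 in T-like or NK-like cells (all genes 1.17% lower, 0.778% higher) and 3 of 7 in B-like cells (1.08% lower, 0.236% higher). The B-like count held Dnajb1 and Hsp90aa1 close to the 2-fold mark, which they passed in 8 and 9 of 13 alternatives. It was 2 of 9 in myeloid-like cells (2.23% lower, 1.36% higher), 1 of 7 in cycling-epithelium-like cells (0.481% lower, 1.26% higher) and 1 of 8 in tuft-like cells (1.17% lower, 0.478% higher). Goblet-like cells had 0 of 4 (3.05% lower, 2.18% higher) and enteroendocrine-like cells 0 of 3 (3.9% lower, 8.66% higher). Hspa1a and Hspa1b each had fewer than 100 UMIs in B-like, goblet-like and enteroendocrine-like cells, so neither is in those counts or medians. Hspa1a is likewise not counted in cycling-epithelium-like and tuft-like cells. The median log2 CPM ratio over the members with enough UMIs was -0.83 in enterocyte-like cells, -0.87 in T-like or NK-like cells and -0.86 in B-like cells, beside 0.04, -0.10 and -0.09 over all genes tested. Nothing is read from these counts, since the contrast chose the list.

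**Figure D2:**
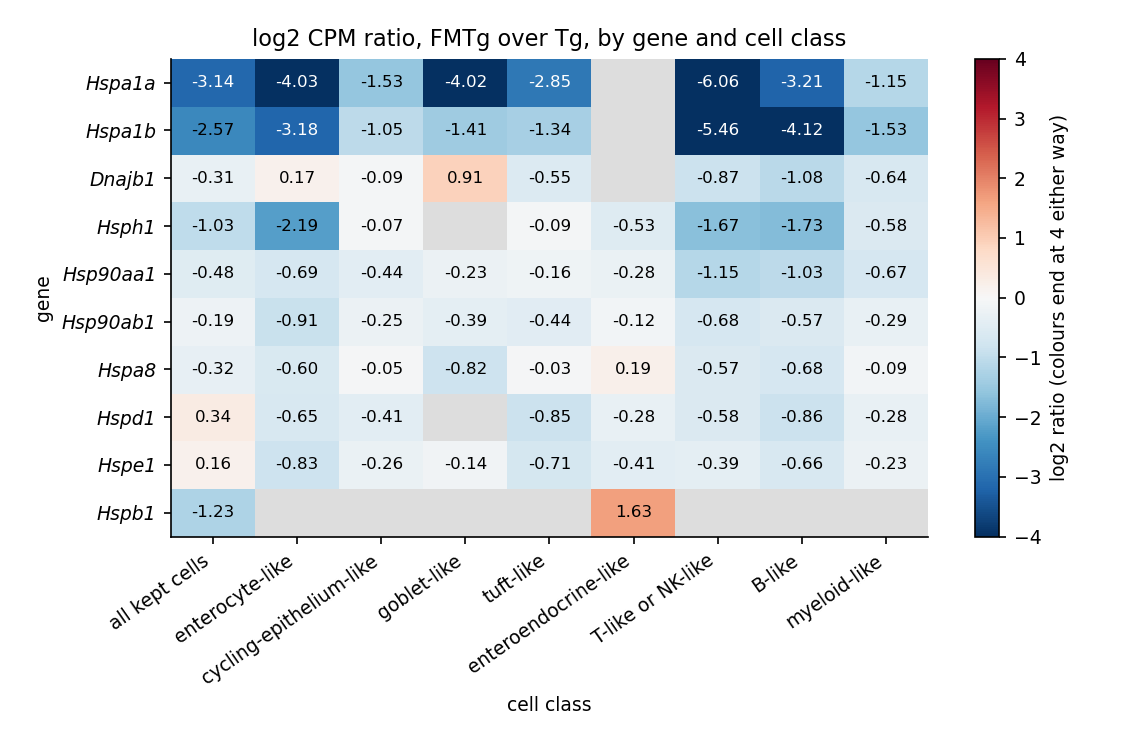
log2 CPM ratio, FMTg over Tg, of each gene (rows) in each cell class (columns); blue is lower and red higher in FMTg, colours end at 4 either way, and grey cells have fewer than 20 UMIs. Hspa1a and Hspa1b are blue in each class with a value, down to -6.06 and -5.46 in T-like or NK-like cells, while Dnajb1 runs from -1.08 in B-like to 0.91 in goblet-like cells.

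Partners of Hsp70 differed by class, as the grid of ratios shows. Hsph1, the Hsp110 protein that exchanges the nucleotide of Hsp70, was lower in enterocyte-like cells, with 25.4 CPM in Tg (334 UMIs) and 5.56 CPM in FMTg (55 UMIs) and a log2 ratio of -2.19 (-2.63 to -1.78). T-like or NK-like cells had 179 CPM of Hsph1 (1223 UMIs) and 56.1 CPM (368 UMIs), a ratio of -1.67 (-1.85 to -1.50). In B-like cells Hsph1 was 152 and 45.8 CPM, a ratio of -1.73 (-2.04 to -1.43) that ranked 6 from the lowest of 5077 genes. Hsph1 was lower in FMTg by more than 2-fold in these 3 classes, whereas in cycling-epithelium-like cells it was 145.5 and 139 CPM (-0.07, -0.49 to 0.37) and in tuft-like cells 74.1 and 69.7 CPM (-0.09, -0.68 to 0.50). In those 2 classes the interval spanned 0 although the pair was lower.

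Dnajb1, the J-domain protein that delivers substrates to Hsp70 and starts its ATPase, had no single direction. Dnajb1 was 88.5 CPM in Tg T-like or NK-like cells (604 UMIs) and 48.4 CPM in FMTg (317 UMIs), a log2 ratio of -0.87 (-1.07 to -0.67). B-like cells had 78.2 and 37.0 CPM, a ratio of -1.08 (-1.45 to -0.72). In enterocyte-like cells Dnajb1 was 52.5 CPM (691 UMIs) and 59.2 CPM (586 UMIs), a ratio of 0.17 (0.01 to 0.33). In goblet-like cells it was 67.3 CPM (110 UMIs) and 127 CPM (55 UMIs), a ratio of 0.91 (0.42 to 1.39). So Dnajb1 was lower in FMTg in both lymphocyte classes and higher in goblet-like cells, beside a pair that was lower in all 4.

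Hspa8, the constitutive Hsp70, was lower by less. It stood at 1203 and 795 CPM in enterocyte-like cells (log2 ratio -0.60, -0.64 to -0.56). T-like or NK-like cells had 1719 and 1155 CPM (-0.57, -0.62 to -0.53) and B-like cells 1917 and 1195 CPM (-0.68, -0.75 to -0.62). Its levels were closer in myeloid-like cells, 2410.0 and 2257 CPM (-0.09, -0.21 to 0.02), in tuft-like cells (-0.03, -0.14 to 0.08) and in cycling-epithelium-like cells (-0.05, -0.14 to 0.05). Goblet-like cells had 435 and 247 CPM, the lowest ratio among the classes (-0.82, -1.13 to -0.52). Values above 0 were 0.19 (-0.11 to 0.50) in enteroendocrine-like and 0.40 (-0.79 to 1.41) in neutrophil-like cells, and no class reached 2-fold for Hspa8.

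The cytosolic Hsp90 genes were lower in FMTg in the classes with most cells. Hsp90aa1, the more stress-responsive form, was 782 CPM in T-like or NK-like cells of Tg and 352 CPM in those of FMTg (log2 ratio -1.15, -1.22 to -1.08) and 883 and 432 CPM in B-like cells (-1.03, -1.14 to -0.93). In enterocyte-like cells Hsp90aa1 was 163 and 101.2 CPM (-0.69, -0.80 to -0.58) and in myeloid-like cells 757 and 476 CPM (-0.67, -0.92 to -0.43). Hsp90ab1, the mainly constitutive form, was 307 and 164 CPM in enterocyte-like cells (-0.91, -0.99 to -0.82) and 1946 and 1216 CPM in T-like or NK-like cells (-0.68, -0.72 to -0.64). Its ratio was below 0 in each of 8 classes, from -0.91 to -0.12, and in 7 of them the interval lay below 0. Hsp90aa1 passed the 2-fold mark in the 2 lymphocyte classes, close to it: under a mitochondrial limit of 10% it had -0.85 in T-like or NK-like cells and -0.49 in B-like cells, where 4 of 13 alternatives took it under 2-fold. Hsp90ab1 passed in no class, and in enterocyte-like cells under 1 of 12 alternatives (-1.09, with a limit of 50%).

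Hspd1 and Hspe1, which encode the Hsp60 ring and its Hsp10 lid in mitochondria and share a promoter region, had 1 direction over all kept cells and the other within classes. Over all kept cells Hspd1 was 150.03 CPM in Tg and 189.6 CPM in FMTg (log2 ratio 0.34, 0.28 to 0.40) and Hspe1 267 and 298 CPM (0.16, 0.11 to 0.20). Within classes Hspd1 was lower in FMTg in 7 of 7, with ratios from -0.86 to -0.28, and Hspe1 in 8 of 8, from -0.83 to -0.14. The direction over all kept cells depended on the setting, and both genes were lower in 3 of 10 alternatives. In enterocyte-like cells the direction of Hspd1 did so too, with 0.09 with equal weight per cell and 0.01 in clusters. Hspe1 was lower there in 12 of 12 alternatives. In T-like or NK-like and in B-like cells both genes were lower in 13 of 13. The cycling-epithelium-like class, with 10 Tg and 35 FMTg cells, held 777 of 4719 Hspd1 UMIs in Tg and 2337 of 4970 in FMTg. There Hspd1 stood at 1916 and 1441 CPM (-0.41, -0.53 to -0.29). A larger share of the Hspd1 UMIs thus came from that class in FMTg. Cells left out for markers of more than 1 class were higher in FMTg, with 0.92 (0.69 to 1.16) for Hspd1 and 0.33 (0.15 to 0.50) for Hspe1. Unassigned cells had 0.07 (-0.12 to 0.27) and -0.02 (-0.16 to 0.13).

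Hspb1, the small heat shock protein Hsp25, came mostly from single cells. Of 843 Tg and 300 FMTg UMIs, 633 (75.1%) and 248 (82.7%) came from 1 unassigned cell in each library. Without these 2 cells, a step chosen after the values were seen, 210 and 52 UMIs remained, a log2 ratio of -1.75 (-2.22 to -1.31), and 150 of the 210 came from 1 further Tg cell. The -1.23 over all kept cells therefore rests on single cells. Among the classes, the enteroendocrine-like class alone had 20 or more Hspb1 UMIs, with 12 in Tg (4 of 12 cells) and 42 in FMTg (7 of 11 cells), a ratio of 1.63 (0.68 to 2.69). In the enteroendocrine-like cluster of a joint clustering, with 18 and 22 cells, Hspb1 had 22 and 46 UMIs, a ratio of 0.41 (-0.35 to 1.21).

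The median mitochondrial share of kept cells was higher in FMTg (14.8%) than in Tg (11.7%), while more enterocyte-like barcodes over 50% came from Tg. The pair was therefore compared within strata of this share. In enterocyte-like cells the pair stood at 150.3 and 13.5 CPM in the stratum of 10 to 25% (log2 ratio -3.48, -3.74 to -3.23), at 82.1 and 11.2 CPM from 25 to 50% (-2.88, -3.13 to -2.63) and at 33.5 and 9.46 CPM over 50% (-1.82, -2.39 to -1.30). Tg levels went down with the share while FMTg levels stayed between 9.46 and 13.5 CPM. CPM totals hold mitochondrial UMIs, so a higher share by itself lowers the CPM of every other gene. Levels are therefore not read across strata. Ratios in T-like or NK-like cells were -5.69 up to 10%, -5.67 from 10 to 25% and -4.79 from 25 to 50%, and in B-like cells -3.46, -3.83 and -1.85. The pair was at least 2-fold lower in 17 of 17 strata with 20 or more UMIs, and the interval lay below 0 in 16, with the goblet-like stratum of 10 to 25% (35 and 3 UMIs) as the exception. So the CPM of the pair was lower in FMTg within each stratum that had a ratio. In enterocyte-like barcodes it was lower by less over 50%, a wide stratum in which the libraries can still differ in mitochondrial share.

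**Figure D3:**
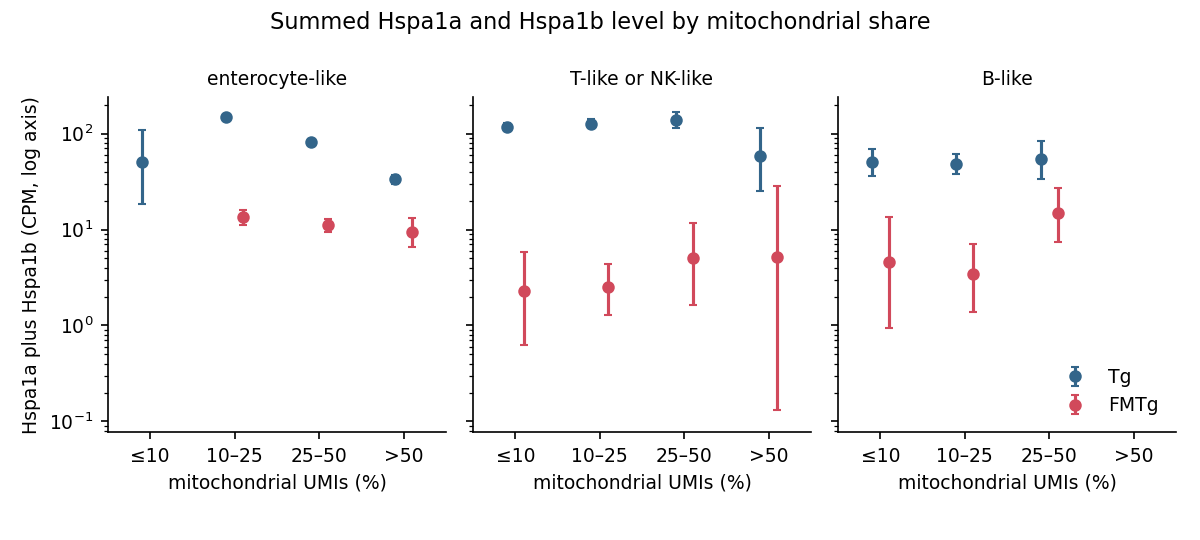
Summed level of Hspa1a and Hspa1b (CPM, log axis) by share of mitochondrial UMIs (percent) in 3 classes, Tg in blue and FMTg in red, with exact Poisson intervals at 95%; strata with 0 UMIs have no point. In enterocyte-like cells the Tg points go from 150.3 to 33.5 CPM between the strata of 10 to 25% and over 50%, while the FMTg points lie between 13.5 and 9.46 CPM. CPM totals hold mitochondrial UMIs, so a higher share by itself lowers these levels.

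Other members behaved otherwise in the enterocyte-like barcodes over 50%, 1321 in Tg and 580 in FMTg. Hsph1 was 6.23 and 5.45 CPM there (log2 ratio -0.19, -1.02 to 0.57), Hsp90aa1 80.2 and 73.1 CPM (-0.13, -0.34 to 0.07) and Hsp90ab1 71.6 and 76.3 CPM (0.09, -0.12 to 0.30). Hspd1 was higher in FMTg, at 5.92 and 15.5 CPM (1.39, 0.82 to 1.95), and Hspa8 at 404 and 468 CPM (0.21, 0.13 to 0.29). In these barcodes the lower CPM of the pair was thus not joined by lower CPM of Hspa8 or Hspd1. CPM totals hold mitochondrial UMIs, and the libraries can differ in mitochondrial share above 50%, which would move all these ratios alike. The sign of a single ratio, such as 0.21 for Hspa8, is therefore not read as a difference in expression.

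Enterocyte-like cells of the libraries also sat at different places on the villus by their markers: median villus-tip marker UMIs per 10000 were 98.9 in Tg and 312 in FMTg, and lower-villus marker UMIs 370 and 121. The cells of both libraries were therefore ordered by tip minus lower-villus markers and cut into 3 groups of like size, a step added after the data had been seen. At the lower-villus end (224 Tg and 86 FMTg cells) the pair was 195 and 21.6 CPM, a log2 ratio of -3.18 (-3.62 to -2.77). In the middle (186 and 124 cells) it was 71.8 and 11.8 CPM (-2.61, -3.15 to -2.10), and at the tip end (72 and 239 cells) 49.8 and 10.5 CPM (-2.24, -2.86 to -1.63). The pair was lower in FMTg by over 4-fold in each group, and its level was lower toward the tip in both libraries. All 3 ratios are nearer to 0 than the -3.47 over the whole class. Tg had more cells than FMTg at the lower-villus end, where the pair was highest. The part of this difference in the ratio of the whole class was not tested. Median depths of the groups were 34742, 21902 and 6511 UMIs in Tg and 27849, 22245 and 15910 in FMTg.

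Dnajb1 changed sign along this order. It was 53.9 and 35.3 CPM at the lower-villus end (log2 ratio -0.61, -0.97 to -0.27), 52.4 and 48.0 CPM in the middle (-0.13, -0.44 to 0.19) and 40.2 and 78.6 CPM at the tip end (0.97, 0.48 to 1.49). Hsph1 was 35.3 and 14.5 CPM at the lower end (-1.28, -1.84 to -0.76) and 8.47 and 3.27 CPM in the middle (-1.38, -2.56 to -0.32), with 4 and 12 UMIs at the tip. Both ratios are nearer to 0 than the -2.19 over the whole class. Hspe1 went the other way from Dnajb1, from 0.48 (0.31 to 0.64) at the lower end through -0.55 to -1.05 (-1.88 to -0.17) at the tip. Hspa8 had 0.11 at the lower end, -0.37 in the middle and -0.41 at the tip, and Hsp90ab1 0.06, -0.72 and -0.71. At the lower-villus end, then, Hspa8, Hspd1 (0.48) and Hspe1 were higher in FMTg beside a pair that was lower.

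**Figure D4:**
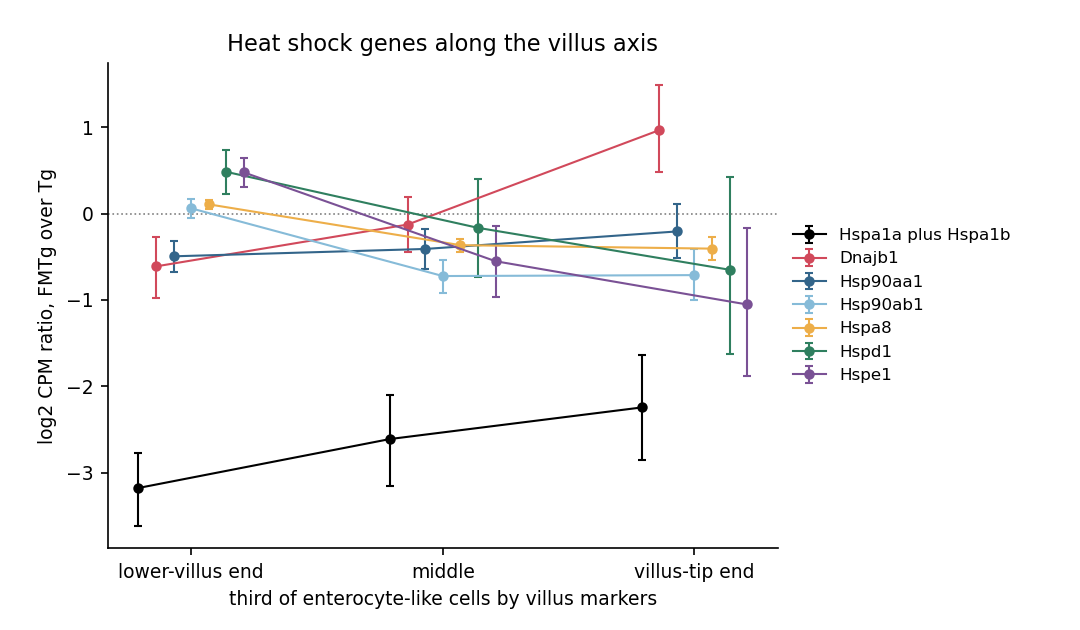
log2 CPM ratio, FMTg over Tg, of the pair and 6 further genes in 3 groups of enterocyte-like cells ordered by villus markers, with exact conditional binomial intervals at 95%. The pair (black) stays between -3.18 and -2.24, Dnajb1 (red) goes from -0.61 to 0.97, and Hspe1 (purple) from 0.48 to -1.05.

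Shares of cells with a UMI of the pair were compared after thinning each cell to 2000 UMIs. The share in T-like or NK-like cells was 16.4% in Tg (212 of 1295 cells, 14.4% to 18.5%) and 0.454% in FMTg (6 of 1322, 0.167% to 0.985%), and unthinned 28.2% and 1.10%. Thinned shares were 18.9% (76 of 402) and 1.90% (8 of 422) in enterocyte-like cells, 8.12% (42 of 517) and 0.349% (2 of 573) in B-like cells and 47.3% (71 of 150) and 25% (9 of 36) in myeloid-like cells. Unthinned they were 48.8% and 16.3%, 12.96% and 1.33%, and 74.2% and 37.5%. Cells under 2000 UMIs, 80 Tg and 27 FMTg enterocyte-like cells among them, were left out. In FMTg no thinned enterocyte-like, T-like or NK-like or B-like cell had more than 1 UMI of the pair. Among Tg T-like or NK-like cells 141 had 1, 49 had 2, 16 had 3 and 6 had 4 or more, so the Tg level was spread over many cells.

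Free RNA in the droplets can give UMIs in cells that do not express a gene. Rbp2, Fabp1, Fabp2 and Apoa1, enterocyte genes of lipid and vitamin A uptake, had 3.73% to 6.09% of their enterocyte-like CPM in Tg T-like or NK-like cells, and 1.81% to 2.93% in those of FMTg. The pair stood there at 81.5% and 18.2% of its enterocyte-like level. In B-like cells the 4 genes stood at 4.61% to 7.12% and 1.90% to 3.14%, and the pair at 32.9% and 27.5%. Myeloid-like cells held more of the pair than enterocyte-like cells, and the part of free RNA in the pair's lymphocyte UMIs was not tested. No class lacked the pair in Tg, so no share of a class free of it can be given.

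Within Tg, cells with and without a thinned UMI of the pair were set side by side for other members. Hsph1 in T-like or NK-like cells was 172 CPM (135.0 to 216) with and 178 CPM (160.4 to 196) without, and Dnajb1 99.1 CPM (71.4 to 134) and 81.3 CPM (69.7 to 94.2). In myeloid-like cells Hsph1 was 148 CPM (91.5 to 226) with and 25.3 CPM (6.90 to 64.8) without, and Dnajb1 113 CPM (64.4 to 183) and 50.6 CPM (21.9 to 99.8). In enterocyte-like cells Hsp90aa1 was 217 CPM (149 to 305) and 135 CPM (108 to 166), and Hsp90ab1 408 CPM (313 to 523) and 287 CPM (247 to 331). Intervals overlapped there and for Hsph1 in T-like or NK-like cells. They were separate for Hsph1 in myeloid-like cells, for Hspe1 in B-like cells, at 1143 CPM (926 to 1396) and 683 CPM (632 to 738), and for Hsp90aa1 in goblet-like cells, at 423 CPM (211 to 757) and 67.6 CPM (32.4 to 124). They were also separate, with more in cells with the pair, for Hsp90aa1 and Hspa8 in B-like cells, Hsp90ab1 and Hspa8 in goblet-like cells, and Hsp90ab1 in tuft-like and in T-like or NK-like cells. Intervals overlapped in the remaining comparisons of members in these classes. Some were separate by little, as for Hsp90ab1 in T-like or NK-like cells (1979 to 2259 CPM with, 1850 to 1967 CPM without). The goblet-like and tuft-like values rest on 13 and 10 cells with the pair.

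Joint clustering of both libraries without the 10 genes, added as a check on the marker classes after the data had been seen, gave 25 clusters. The pair was lower in FMTg in 21 of 21 clusters with 20 or more UMIs, by at least 2-fold in 18, with log2 ratios from -6.62 to -0.63. The interval spanned 0 in 1 of them, an enterocyte-like cluster with 22 and 6 UMIs (-2.22 to 0.72). That cluster was under 2-fold, as was a T-like or NK-like cluster of 16 and 7 cells (-0.85, -1.72 to -0.05). A myeloid-like cluster of 202 Tg and 44 FMTg cells was also under 2-fold, at -0.92 (-1.24 to -0.61; 1017 and 93 UMIs), where the myeloid-like marker class had -1.37. The 2-fold mark in myeloid-like cells thus depended on how they were grouped. Hsph1 was lower in 20 of 20 clusters, by 2-fold in 15, and Hsp90aa1 in 22 of 25. Dnajb1 was lower in 18 of 22, and in 2 clusters its interval lay above 0. Hsp90ab1 was lower in 21 of 25 with 3 intervals above 0, Hspd1 in 17 of 24 with 2 above 0 and Hspe1 in 19 of 24 with 3 above 0. In 1 enterocyte-like cluster of 134 Tg and 71 FMTg cells Hspd1 had 1.11 (0.90 to 1.32) and Hspe1 1.19 (1.04 to 1.33).

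Genes of the same systems were read from 11 further lists, given for genes with at least 100 UMIs. Among Hsp90 co-chaperones, 2 of 12 were at least 2-fold lower in enterocyte-like cells (2.59% of all genes) and 1 was higher (4.72%), with a median log2 ratio of -0.43. Ahsa1, which activates the Hsp90 ATPase, had -1.03 (-1.32 to -0.74), and the immunophilin Fkbp4 -1.07 (-1.33 to -0.82). Fkbp5, the related immunophilin induced by glucocorticoids, was higher at 1.10 (0.73 to 1.48). Cacybp had -0.94, Ptges3 -0.34 and Cdc37 -0.22. In T-like or NK-like cells Ahsa1 had -0.97, Cacybp -0.96 and Fkbp4 -0.44, and in B-like cells Ahsa1 had -1.30. The 13 co-chaperones had a median of -0.40 in T-like or NK-like cells, with 0 past 2-fold either way (all genes 1.17% lower, 0.778% higher). In B-like cells 2 of 10 were lower (1.08% of all genes) with a median of -0.59.

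Among J-domain proteins 0 of 10 passed 2-fold in enterocyte-like cells (2.59% of all genes lower, 4.72% higher) and the median was -0.10. By contrast 1 of 11 was lower in T-like or NK-like cells (1.17% of all genes) and 1 of 9 in B-like cells (1.08%). Dnaja1, another partner of Hsp70, had -0.50 (482 and 341 CPM) in enterocyte-like cells. It had -1.07 (-1.14 to -1.01; 921 and 438 CPM) in T-like or NK-like cells and -1.33 (-1.44 to -1.21) in B-like cells. Dnaja2 had -0.14, Dnajb6 0.23, Dnajb2 0.41 and Dnajc5 0.95 in enterocyte-like cells. Dnaja1 was thus lower in both lymphocyte classes by over 2-fold, as Hsph1 was. Of 5 other Hsp70 and Hsp110 genes, Hspa4 had 0.02, Hspa4l -0.47, Hspa13 0.46 and Hspa12a, a distant Hsp70 relative, 2.37 (1.81 to 2.97; 33 and 128 UMIs). In B-like cells Hspa4l was lower at -1.46 (-2.05 to -0.90).

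Exchange factors, chaperonins and chaperones of the endoplasmic reticulum and mitochondria had no gene past 2-fold in enterocyte-like cells. Of all genes there, 2.59% were 2-fold lower and 4.72% higher, so nothing is read from counts of 0 in lists this short. Of 11 endoplasmic reticulum chaperones, 0 passed 2-fold in enterocyte-like cells, with a median of -0.10, and Hspa5 (BiP) had 0.05 (-0.03 to 0.13), Hsp90b1 0.11, Dnajb9 0.57, Sdf2l1 -0.34, Calr -0.27 and Canx -0.39. Of 9 further mitochondrial chaperones 0 passed, with a median of -0.46, and Hspa9 had -0.59, Grpel1 -0.46, Grpel2 0.75 and Clpb -0.97. Of 13 genes of the TRiC chaperonin and prefoldin 0 passed, with a median of -0.39, and Cct3 had -0.78, Tcp1 -0.62, Cct4 -0.51, Cct7 -0.03, Pfdn4 -0.72 and Pfdn5 0.14. Of 7 nucleotide exchange factors and Hsp70 partners 0 passed, with a median of -0.07, and Bag1 had -0.07, Stub1 0.29, Bag6 0.20, St13 -0.43, Bag4 -0.50 and Bag5 -0.55. Of the heat shock factor list only Hsbp1, a binding protein of Hsf1, had 100 UMIs in enterocyte-like cells, with -0.03 (-0.14 to 0.09), and of other small heat shock proteins only Hspb11, with -0.53.

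Of 10 heat-induced genes outside the chaperones, 3 were at least 2-fold higher in enterocyte-like cells (4.72% of all genes), 0 were 2-fold lower (2.59%) and the median was 0.60, with a range from -0.90 to 2.47. Zfand2a, an arsenite-inducible partner of the proteasome, had 2.47 (1.97 to 3.01; 40 and 167 UMIs), Dedd2 1.29 (1.04 to 1.55) and the stress factor Atf3 1.06 (0.78 to 1.34). Ier5 had 0.60 and Ubb, a polyubiquitin gene, -0.25. For T-like or NK-like cells the list had a median of -0.36 with 0 of 8 past 2-fold (all genes 1.17% lower, 0.778% higher), and Dedd2 had -0.69. So the list's median was above 0 in enterocyte-like cells, with members on both sides of 0, and below 0 in T-like or NK-like cells.

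Immediate early genes, which cell dissociation is known to induce, had 3 of 16 at least 2-fold higher in enterocyte-like cells (4.72% of all genes). Atf3 is in this list and in that of heat-induced genes, and was counted as higher in both. In B-like cells 1 of 15 was lower (1.08%), and over all kept cells 3 of 20 were lower and 0 higher (3.88% and 2.72%). The median of the list was 0.43 in enterocyte-like cells, -0.35 over 16 genes in T-like or NK-like cells and -0.53 over 15 in B-like cells. Over all kept cells it was -0.22. Socs3 had 2.22 (2.02 to 2.42), Fosl2 1.19, Fos 0.54, Jun 0.06 and Jund -0.27 in enterocyte-like cells. Jun had -0.93 and Fos -0.63 in T-like or NK-like cells, and in B-like cells -0.84 and -0.52. The pair was lower in FMTg in all 3 classes, while the median of these genes was above 0 in enterocyte-like cells and below 0 in the others. The part of cell handling in the values of the pair was not tested.

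**Figure D5:**
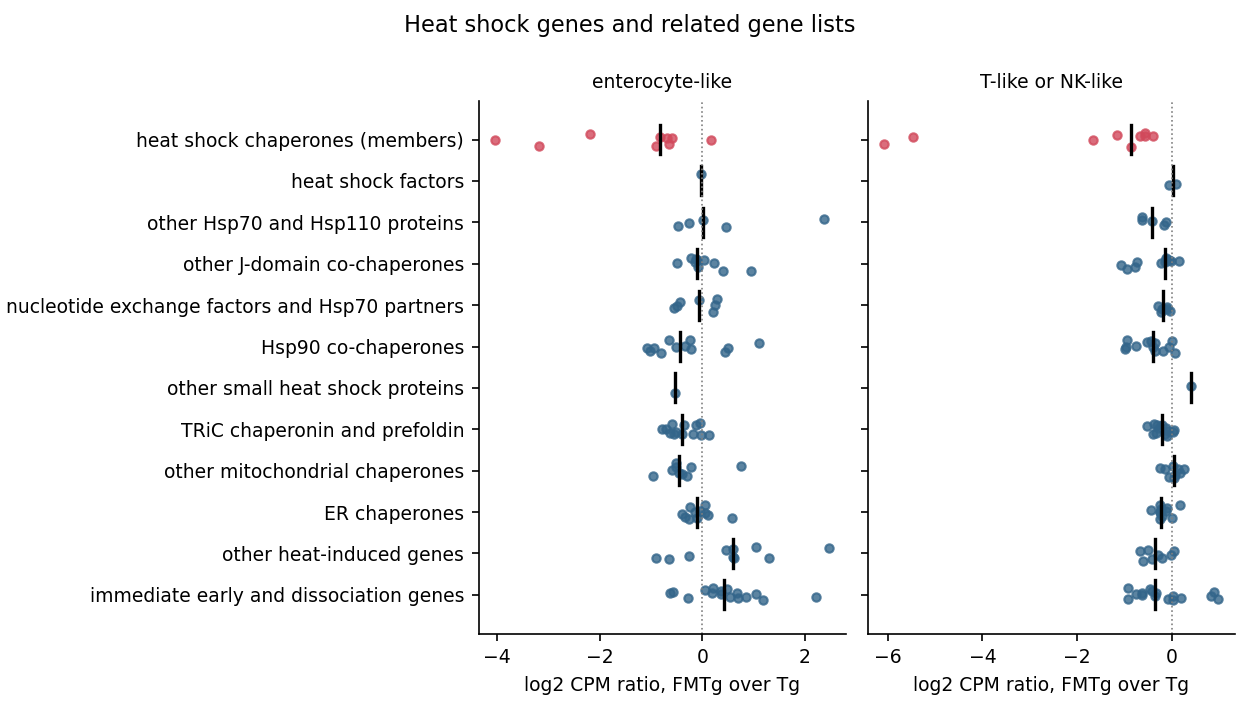
log2 CPM ratio, FMTg over Tg, of each gene with at least 100 UMIs in 12 lists (rows), for enterocyte-like and T-like or NK-like cells; points are genes, black bars list medians, red the 10 heat shock chaperones. Median bars of other heat-induced genes stand at 0.60 in enterocyte-like and -0.36 in T-like or NK-like cells, while those of the red list stand at -0.83 and -0.87.

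Likeness to the pair was measured by Pearson correlation of log2(CPM + 1) over 8 class sums of at least 50 cells and 10527 genes, as a description, since sums of 1 library share depth and preparation. The most alike genes were CAAA01118383.1 (0.87), Ppp2r3d (0.86), Ocel1 (0.83), Kmt5a (0.80) and Inppl1 (0.79). Among the members Dnajb1 had 0.72, Hspa8 0.32, Hspb1 0.29, Hsph1 0.17 and Hsp90aa1 0.17. Hsp90ab1 had 0.01, Hspd1 0.01 and Hspe1 -0.06. The sums were 5 of Tg and 3 of FMTg, so the measure holds the contrast that chose the list. Levels in enterocyte-like cells of Tg and FMTg were 99.6 and 59.7 CPM for Ocel1, 77.4 and 77.8 CPM for Kmt5a and 23.8 and 33.2 CPM for Inppl1.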

How the data were processed

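Single-cell RNA of 2 libraries (1 Tg, 1 FMTg) was made with the 10x Chromium 3' protocol, per the labels. Each deposited value is an unnormalized count of UMIs for 1 gene in 1 barcode. Per the submitters' processing notes, CASAVA 1.8.1, Cell Ranger 3.0 and mm10 were used, with an annotation not given in the sources used here. Positions come from GENCODE vM21, in which 30416 of 31053 symbols matched 1 gene. A 3' count does not cover the whole transcript, so the deleted Mdm2 exons may go unseen.

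Minimums of 500 UMIs and 300 genes and a limit of 25% on mitochondrial UMIs were set for barcodes; 257 Tg and 210 FMTg barcodes failed the minimums and 2946 and 3353 the limit. A class needed 4 or 5 distinct markers and a minimum of marker UMIs per 10000. Cells of more than 1 class (171 and 128) were left out as doublet-like, and 168 and 116 stayed unassigned. In the enterocyte-like class 15 Tg and 14 FMTg cells lay within 1.25 times the minimum. The scrublet method of scanpy 1.11.5 marked 2 and 13 cells and so had not worked; as an alternative the 154 and 144 highest-scoring cells were removed.

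UMIs were summed per class and library and scaled to the class total (CPM). Intervals are exact Poisson for sums, conditional binomial for ratios and Clopper-Pearson for shares, at 95%, for counting error only. With 1 library per group no p-value was computed; a gene is called past 2-fold with at least 100 UMIs over both libraries, a ratio is given with at least 20, and a count of 0 is set to 3. Named are all 10 members, from each list up to 3 genes of most UMIs and up to 3 of the largest absolute ratio in enterocyte-like cells, and the 5 genes most like the pair. Rbp2, Fabp1, Fabp2 and Apoa1 were chosen as enterocyte genes after the data had been seen. Members and lists were chosen with earlier results of these data known, and marker minimums after the data had been seen. The ratio was tested on simulated data. Cct6a, of the chaperonin list, is not analysed here, and 1 gene that the naming rule picks is not reported here.

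Alternatives were other mitochondrial limits and UMI minimums, TMM factors (edgeR 4.0.16), DESeq2 1.42.0 size factors, a total without abundant genes, equal weight per cell, stricter markers, clusters (leidenalg 0.10.2, resolution 1), both doublet rules and leaving out the 1% of cells with most UMIs of the gene. Computations ran in R 4.3.3 and in Python 3.11.15 (scipy 1.17.1, numpy 2.4.6, matplotlib 3.10.9, pandas 2.3.3).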

Additional observations from a re-analysis of the deposited data

Results flagged for a closer look

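Dnajb1 differed in direction between classes: its log2 CPM ratio, FMTg over Tg, was -1.08 (-1.45 to -0.72) in B-like cells and 0.91 (0.42 to 1.39) in goblet-like cells, with intervals on either side of 0; the difference was not tested, and the goblet-like class had 97 Tg and 28 FMTg cells.

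Barcodes under the minimums, 257 in Tg and 210 in FMTg, entered no comparison, and 5 members had higher CPM there in FMTg. The log2 CPM ratios were 2.19 for Hsp90aa1, 1.51 for Hsp90ab1, 1.41 for Hspa8, 1.97 for Hspd1 and 1.49 for Hspe1, from 8 to 76 UMIs per gene and library. Mitochondrial UMIs made up 90.3% of these barcodes' UMIs in Tg and 77.6% in FMTg. CPM totals hold mitochondrial UMIs, so the lower share in FMTg by itself raises the CPM of every other gene there. Higher expression of the 5 members is therefore not read from these ratios.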

How the results depend on the processing

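The pair was at least 2-fold lower in FMTg under each alternative that gave a value: -3.39 to -2.10 on the log2 scale over all kept cells (10 alternatives), -3.66 to -2.85 in enterocyte-like cells (12), -8.42 to -4.64 in T-like or NK-like cells (13) and -5.74 to -2.47 in B-like cells (13). Over all kept cells the value moved from -2.76 to -2.10 with a mitochondrial limit of 10%, -2.94 with 50%, -3.39 with equal weight per cell and -3.25 without the top 1% of cells. In enterocyte-like cells it moved from -3.47 to -3.03 with no mitochondrial limit and -2.85 with equal weight. In T-like or NK-like cells it moved from -5.64 to -4.64 in clusters and -8.42 without the top 1% of cells, where 2 FMTg UMIs remained. A cluster of 16 Tg and 7 FMTg cells that was named T-like or NK-like held 60 and 17 UMIs of the pair. It also held 794 and 250 Hspb1 UMIs, where the marker class had 6 and 2, so its name is doubtful. In B-like cells the pair moved from -3.73 to -2.47 with cells of more than 1 class kept and -5.74 without the top 1%. In FMTg only 15 T-like or NK-like cells (1.10%) and 8 B-like cells (1.33%) held the pair, beside 379 and 70 in Tg. Leaving out the top 1% can thus take most FMTg cells with the pair, so -8.42 and -5.74 are not read as checks. The cause of the other moves was not tested. The count of members at least 2-fold lower in enterocyte-like cells, 3, became 0 with a limit of 10%, where 26 and 4 cells remained and 1 gene could be counted, 5 with a limit of 50% and 8 at 1.5-fold. A limit of 10% gave no enterocyte-like ratio for the pair (6 and 0 UMIs). Over all kept cells the direction depended on the setting for Hspd1 (-0.46 to 0.90), Hspe1 (-0.40 to 0.59) and Hsp90ab1 (-0.60 to 0.08), and in enterocyte-like cells for Hspd1 (-0.83 to 0.09) and Hspa8 (-0.69 to 0.55, the latter with a limit of 10%). In B-like cells Dnajb1 was 2-fold lower in 8 of 13 alternatives (-1.32 to -0.93) and Hsp90aa1 in 9 of 13 (-1.31 to -0.49), and in T-like or NK-like cells Hsp90aa1 was in 12 of 13 (-1.26 to -0.85). Thinning to 1000 UMIs gave shares of 9.33% and 1.58% in enterocyte-like, 10.3% and 0.294% in T-like or NK-like and 3.72% and 0.332% in B-like cells. No paired analysis was possible because each group has 1 library. Depth limits FMTg values of the pair, which rest on 16 UMIs in T-like or NK-like, 10 in B-like and 7 in goblet-like cells.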
